A study of Mus musculus with 12 samples.

Results

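The heat shock and chaperone genes Hspa1a, Hspa1b, Hspa8, Hsph1, Dnajb1, Bag3, Hsp90aa1, Hspb1, Hspd1 and Hspe1 were followed in B16F10 cells, a mouse melanoma line in culture, after treatment with 5-aza-2′-deoxycytidine (DAC) and sulforaphane (SFN). The genes were chosen by symbol, and all 10 were among the 24421 genes of the deposited tables. There were 12 libraries, with 3 replicates in each of 4 groups, which were control cells given the solvent DMSO, DAC at 25 nM for 72 h, SFN for 48 h, and DAC at 25 nM for 72 h with SFN for 48 h (DAC+SFN, the combination treatment). The labels print the SFN dose as 5 nM in the SFN group and as 5 µM in the DAC+SFN group. By the labels alone, the SFN dose thus also differed between these groups. The methods of the paper name a single SFN dose, 5 µM, and state that single treatments were handled like the combination. DAC, a nucleoside analog, blocks the methylation of newly made DNA. SFN, an electrophilic isothiocyanate, is released from cruciferous vegetables. All groups came from the same cell line, and polyadenylated RNA was sequenced, so a change is a change of transcript and not of protein.

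Heat shock proteins are molecular chaperones, which bind unfolded proteins and help them to fold or hand them on for degradation. Under proteotoxic stress, the transcription factor HSF1 is released from its chaperones and binds heat shock elements, inverted repeats of nGAAn, upstream of the inducible members. HSP70 chaperones act in a cycle in which J proteins bring the client, exchange factors let it go, and HSP90 receives it. Small heat shock proteins hold clients without ATP, and the mitochondria carry a chaperonin of their own. Cancer cells are known to hold the constitutive members at a high level.

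The library totals were between 15880957 and 27291436 counts. The labelled cell type was checked with melanocyte markers, and all 7 (Mitf, Sox10, Tyr, Tyrp1, Dct, Pmel and Mlana) were at 300.6 CPM or above in every library (CPM, counts per 1e+06 counts after scaling of the libraries). The summed level of 4 leukocyte markers was between 2.36 and 4.78 CPM in control, 3.93 and 5.68 CPM with DAC, 6.16 and 8.99 CPM with SFN and 8.31 and 11.2 CPM with DAC+SFN, so that the libraries with SFN did not overlap with control. Nearly all of this was Cd68, while Adgre1 was at 0 and Ptprc and Cd3e had at most 2 counts in a library. Its part in the results with SFN and DAC+SFN was not tested. Among 8 genes induced by the factor NRF2, the known sensor pathway for SFN, 7 rose with SFN and all 8 with the combination treatment. At the same adjusted p-value under 0.05 (edgeR), 8.27% and 17% of all genes were higher. Without the replicate number in the fit, 2 of the NRF2 genes rose with SFN and 6 with the combination treatment. With single libraries left out, between 6 and 8 rose with SFN and all 8 with the combination treatment. Nqo1 was between 7.45 and 9.04 CPM in control and between 33.2 and 35.2 CPM with SFN. Hmox1 changed by 0.78 on the log2 scale with DAC+SFN (SE 0.14, adjusted p = 0.000741), and its value with SFN was 0.39 (SE 0.14, adjusted p = 0.0746). The former had an adjusted p of 0.0605 in edgeR without the replicate number in the fit. The latter was between 0.21 and 0.50 with single libraries left out. Its adjusted p in edgeR was 0.00450 with no filter on low counts, 0.0103 with only these groups fitted and 0.0483 without control replicate 3.

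The upstream stretches of 6 members are shown because they hold the letters of the heat shock element. The 250 bases upstream of each start in RefSeq (GRCm38.p6) were searched on both strands for GAANNTTC and TTCNNGAA, which overlap in longer arrays. Windows were found for 8 of the 10 members, and these letters were in 12.8% of all 32851 windows of the same length. An element was present in the windows of Hspa1a, Hspa1b, Hspb1, Hsph1 and Hspe1 and in 1 of the 2 windows of Hspd1, and none was found in those of Dnajb1 or Bag3. Elements that depart from these letters or lie outside the windows were not searched for. An array of 3 units, GAANNTTCNNGAA or TTCNNGAANNTTC, was found in 0.466% of all windows. Among the members, it was found in the sequence that Hspd1 and Hspe1 share, which holds 2 such arrays that overlap. The sequences are written 5′ to 3′ on the strand of the gene (for the shared stretch, that of Hspe1, which is opposite to Hspd1), and capitals mark the elements. The stretches are at chr17:34972157-34972306 (minus strand), chr17:34959239-34959388 (minus), chr5:135887769-135887868 (plus), chr5:149636351-149636380 (minus) and chr1:55088053-55088082 (plus).
Hspa1a: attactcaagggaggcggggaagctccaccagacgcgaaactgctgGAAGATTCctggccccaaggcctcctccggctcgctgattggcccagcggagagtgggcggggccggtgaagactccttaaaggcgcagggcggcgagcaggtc
Hspa1b: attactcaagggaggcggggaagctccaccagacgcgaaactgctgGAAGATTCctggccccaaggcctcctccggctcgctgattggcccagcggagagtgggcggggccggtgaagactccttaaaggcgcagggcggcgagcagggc
Hspb1: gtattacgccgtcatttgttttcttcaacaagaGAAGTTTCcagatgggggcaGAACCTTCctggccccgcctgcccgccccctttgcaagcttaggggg
Hsph1: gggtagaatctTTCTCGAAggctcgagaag
Hspe1 and Hspd1: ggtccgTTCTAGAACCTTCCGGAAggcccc
The upstream sequences of Hspa1a and Hspa1b differed at 3 of 250 bases (98.8% identity), and both hold the element 104 bases before the start. Hspb1 holds a pair of elements, at 117 and 97 bases before its start. Hspd1 and Hspe1 lie head to head on chromosome 1 and overlap by 112 bases on opposite strands, so these arrays lie upstream of Hspe1 and of a start of Hspd1 at once. In GENCODE M21, this stretch lies in an exon of Hspd1 and that of Hsph1 overlaps an exon of Hsph1, while the other 3 stretches hold no annotated exon. The windows held between 12 (Hspb1) and 33 (Dnajb1) CpG dinucleotides, and DNA methylation was not measured in these samples.

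The members differed widely in level. Per length of transcript, in RPKM (CPM per kilobase of exons in GENCODE M21), the mean over 12 libraries was 971 ± 82.4 (SD) for Hspa8, 738 ± 57.5 for Hsp90aa1, 664 ± 49.8 for Hspd1, 174 ± 12.7 for Hspe1, 30.6 ± 2.35 for Hsph1, 26.3 ± 3.43 for Bag3, 16.1 ± 1.27 for Dnajb1, 2.09 ± 1.05 for Hspb1 and 1.01 ± 0.244 for Hspa1b. Hspa8, the constitutive HSP70 of the cytosol, was among the 26 genes with the highest RPKM in every library. Hsp90aa1 (HSP90 alpha) and Hspd1 (the mitochondrial chaperonin HSP60) were among the first 42. Neighbours in this order whose ranges over the 12 libraries overlapped were Hsp90aa1 and Hspd1, Hsph1 and Bag3, and Hspb1 and Hspa1b. The members together held 0.982% ± 0.0644 (SD, n = 3) of all counts in control libraries, 0.951% ± 0.0648 after DAC, 0.944% ± 0.0179 after SFN and 0.893% ± 0.0228 after DAC+SFN. Hspa8, Hsp90aa1 and Hspd1 made up between 93.3% and 93.9% of this share.

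Hspa1a, the first of a pair of genes for the heat-inducible HSP70, was listed at 0 in all 12 libraries, and 0 counts allow up to 3 counts, or between 0.112 and 0.191 CPM. It lies on chromosome 17 (mm10, 34969190 to 34972156, minus strand), 9951 bases from Hspa1b (34956436 to 34959238, minus strand). The authors kept only reads that aligned to 1 place. Of the 75-base stretches of the Hspa1a transcript, 45.8% are found in no other gene, and for Hspa1b this share is 44.2%, since 1524 stretches are common to both. The span of a gene on the opposite strand, Gm20481, covers 2225 of the 2967 bases of Hspa1a and its exons cover 564 of them, and whether strand was used in the counting is not given in the sources used here. The level of Hspa1a is therefore uncertain.

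**Figure D1:**
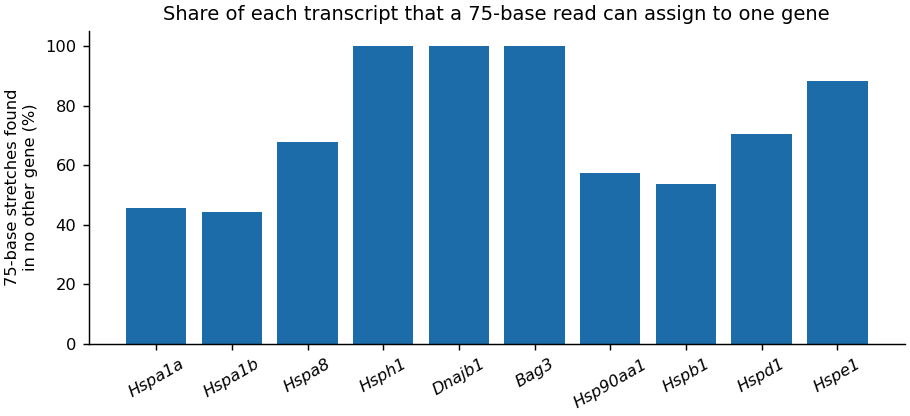
Share (%) of the 75-base stretches of each member's transcripts that occur in no other annotated gene (bars, GENCODE M21). Hsph1, Dnajb1 and Bag3 are at 100%, Hspa1a, Hspa1b and Hspb1 are the lowest, between 44.2% and 53.6%, and the counts of the other members leave out part of their reads.

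The stretches of Hspb1 that are not unique are shared with Hsp25-ps1. Those of Hspa8 (67.8% unique), Hsp90aa1 (57.2%) and Hspd1 (70.4%) are shared mainly with Gm15459, Gm12346 and Hspd1-ps3. A read that lies wholly in such a stretch aligns to more than 1 place and was not kept. The values of these genes can be compared between groups, while their order in RPKM is uncertain to this extent.

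The remaining 9 members passed the filter of at least 1 CPM in at least 3 libraries, and their levels were compared between groups by edgeR's quasi-likelihood F-test. Adjusted p-values (Benjamini-Hochberg) are over all 11638 genes tested, with the replicate number as a block, and a gene was called at an adjusted p-value under 0.05. No member was called with DAC compared to control (0 of 9, where 0.18% of all genes were called). With SFN compared to control, 0 of 9 were called, where 13.9% of all genes were called. With DAC+SFN compared to control, 3 of 9 were called, where 31.6% of all genes were called. The share of members was thus close to that of all genes. Hspa8 and Hsph1 fell and Hspb1 rose. In these bulk libraries, less RNA per cell and fewer cells that express a gene cannot be told apart.

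**Figure D2:**
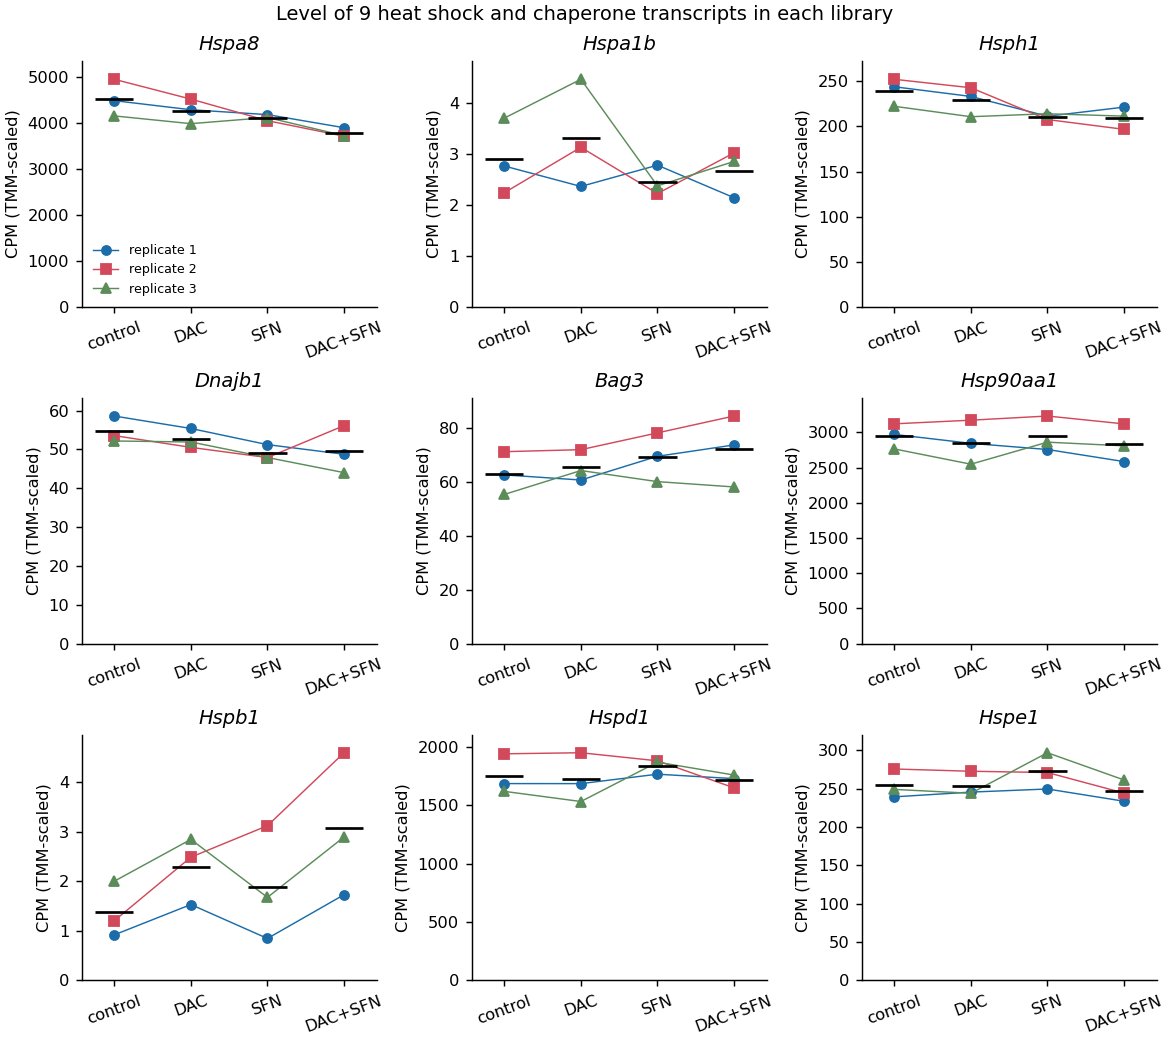
CPM (TMM-scaled, linear axis from 0) of the 9 members above the filter in each of the 12 libraries by group. Lines join libraries of the same replicate number and black bars are group means (n = 3). Hspa8 is lowest in the 3 DAC+SFN libraries (3718 to 3902), and Hspb1 in replicate 1 lies under replicates 2 and 3 in each group.

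Hspa8 encodes HSC70, the constitutive HSP70 of the cytosol (chromosome 9, 40800984 to 40810087, plus strand). Its level in replicates 1, 2 and 3 was 4491, 4955 and 4158 CPM in control libraries, 4293, 4524 and 3989.8 CPM after DAC, 4187, 4055 and 4124 CPM after SFN and 3902, 3718 and 3728 CPM after DAC+SFN. The combination libraries were the lowest 3 of the 12 and did not overlap with any other group. The log2 fold change was -0.086 (SE 0.064, adjusted p = 0.701) with DAC and -0.13 (SE 0.064, adjusted p = 0.180) with SFN. With DAC+SFN it was -0.26 (SE 0.064, 95% interval -0.40 to -0.12, adjusted p = 0.00708), a decrease of 16.4% that was seen in 3 of 3 replicates. It was called when any of the 6 libraries was left out and without the replicate block (adjusted p = 0.0496), and lost when only these groups were fitted (adjusted p = 0.0786). Compared to DAC alone, DAC+SFN gave -0.17 (SE 0.064, adjusted p = 0.0814), and compared to SFN alone -0.12 (SE 0.064, adjusted p = 0.333).

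Hsph1 encodes an HSP110 protein, which releases ADP from HSP70 and so resets its cycle (chromosome 5, 149614287 to 149636376, minus strand). It was at 244, 252 and 222 CPM in control libraries, 233, 243 and 211 CPM after DAC, 211, 208 and 214 CPM after SFN and 221, 197 and 211 CPM after DAC+SFN. The highest library with SFN or DAC+SFN was below the lowest control library. The log2 fold change with SFN was -0.18 (SE 0.064, adjusted p = 0.0721), with a decrease in 3 of 3 replicates. With DAC+SFN it was -0.19 (SE 0.064, 95% interval -0.33 to -0.053, adjusted p = 0.0344), again lower in 3 of 3. This call was lost without control replicate 1 (adjusted p = 0.0936), control replicate 2 (0.158) or DAC+SFN replicate 2 (0.194), without the replicate block (0.121), and with only the compared groups fitted (0.0924). The fold changes of both drugs together and of SFN alone differed by -0.0082 (95% interval -0.14 to 0.13).

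Dnajb1 is the inducible J protein of the cytosol, which delivers clients to HSP70 and speeds its ATPase (chromosome 8, 83608193 to 83612653, plus strand). In control it was at 58.6, 53.6 and 52.2 CPM, with DAC at 55.4, 50.5 and 51.9 CPM, with SFN at 51.2, 47.9 and 47.9 CPM, and with DAC+SFN at 48.8, 56.1 and 44.0 CPM. All SFN libraries were below all control libraries, while replicate 2 of the combination treatment was above control replicates 2 and 3. The log2 fold change was -0.16 with SFN (SE 0.075, adjusted p = 0.177) and -0.14 with DAC+SFN (SE 0.076, adjusted p = 0.166). Without DAC+SFN replicate 2, the latter was -0.27 and was called (adjusted p = 0.0131).

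Bag3 encodes a co-chaperone that joins HSP70 to small heat shock proteins and to selective autophagy (chromosome 7, 128523616 to 128546981, plus strand). Its CPM in replicates 1, 2 and 3 was 62.6, 71.2 and 55.3 in control libraries, 60.7, 71.9 and 64.2 after DAC, 69.5, 78.1 and 60.1 after SFN and 73.7, 84.4 and 58.1 after DAC+SFN. The groups overlapped, and replicate 2 had the highest level in every group. Within replicates, Bag3 was higher in 3 of 3 with SFN (log2 fold change 0.13, SE 0.072, adjusted p = 0.235) and in 3 of 3 with DAC+SFN (0.19, SE 0.073, adjusted p = 0.0614). Without DAC+SFN replicate 3, the change was 0.25 and was called (adjusted p = 0.0109), and in the comparison of DAC+SFN with DAC it was called only without DAC replicate 3 (0.22, adjusted p = 0.0413).

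Hsp90aa1 encodes the inducible HSP90, which completes the folding of kinases and receptors (chromosome 12, 110690605 to 110702728, minus strand). It was at 2972, 3123 and 2766 CPM in control libraries, 2845, 3174 and 2549 CPM after DAC, 2758, 3233 and 2862 CPM after SFN and 2586, 3122 and 2810.0 CPM after DAC+SFN. Replicate 2 was the highest in each group, and the groups overlapped. The log2 fold changes compared to control were -0.052 (DAC), -0.0032 (SFN) and -0.059 (DAC+SFN), with adjusted p-values between 0.508 and 0.982. The interval with DAC+SFN was from -0.19 to 0.075, so a change of the size seen for Hspa8 lay outside of it.

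Hspb1 encodes the small heat shock protein HSP25, which holds unfolded clients in large oligomers (chromosome 5, 135887919 to 135889563, plus strand). It had few counts, namely 20, 28 and 39 in control libraries, 37, 39 and 76 after DAC, 18, 83 and 41 after SFN and 38, 96 and 62 after DAC+SFN. These were 0.920, 1.20 and 2.00 CPM in control libraries, 1.53, 2.49 and 2.85 CPM after DAC, 0.847, 3.12 and 1.68 CPM after SFN and 1.73, 4.60 and 2.90 CPM after DAC+SFN. The groups overlapped, and within each replicate number both DAC and DAC+SFN were above control. The log2 fold change with DAC+SFN was 1.14 (SE 0.29, 95% interval 0.52 to 1.76, adjusted p = 0.00849), a 2.20-fold increase. The call was lost without control replicate 2 (0.73, adjusted p = 0.0942), without DAC+SFN replicate 2 (0.94, adjusted p = 0.0554) and without the replicate block (1.16, adjusted p = 0.140). With DAC alone it was 0.77 (SE 0.30, adjusted p = 0.391), higher in 3 of 3 replicates, and 0.40 without control replicate 2. With SFN alone it was 0.43 (SE 0.31, adjusted p = 0.384), where replicate 2 was higher and replicates 1 and 3 were lower than control. This was 0.014 without control replicate 2, 0.025 without SFN replicate 2 and 0.74 without control replicate 3. DAC+SFN compared to SFN gave 0.71 (SE 0.27, adjusted p = 0.184), higher in 3 of 3, and this was called with only these groups fitted (adjusted p = 0.0267). It was 1.12 without SFN replicate 2 and was not called as any library was left out.

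Hspa1b, the other heat-inducible HSP70 gene, had 60, 52 and 72 counts in control libraries, 57, 49 and 119 after DAC, 59, 59 and 58 after SFN and 47, 63 and 61 after DAC+SFN. DAC replicate 3 was the highest library, at 4.46 CPM, and the others were between 2.14 and 3.70 CPM. No direction was shared by the 3 replicates of a treatment compared to control. The log2 fold changes were 0.19 (95% interval -0.29 to 0.67) with DAC, -0.22 (-0.72 to 0.27) with SFN and -0.11 (-0.60 to 0.39) with DAC+SFN, so a rise of Hspa1b by more than 0.39 on the log2 scale with DAC+SFN lay outside the interval. The values hold for the part of the gene that Hspa1a does not share.

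Hspd1 and Hspe1 encode HSP60 and HSP10, the barrel and the lid of the mitochondrial chaperonin (chromosome 1, 55077835 to 55088243 on the minus strand and 55088132 to 55091307 on the plus strand). Hspd1 was at 1684, 1939 and 1618 CPM in control libraries, 1684, 1948 and 1531 CPM after DAC, 1765, 1879 and 1868 CPM after SFN and 1727, 1648 and 1757 CPM after DAC+SFN. Hspe1 was at 239, 276 and 249 CPM in control libraries, 246, 273 and 244 CPM after DAC, 249.6, 271 and 297 CPM after SFN and 234, 244 and 261 CPM after DAC+SFN. For both genes the treated groups overlapped with control. The log2 fold changes compared to control were between -0.024 and 0.076 for Hspd1 and between -0.047 and 0.097 for Hspe1. With DAC+SFN compared to SFN, both were lower in 3 of 3 replicates, by -0.10 for Hspd1 (SE 0.074, adjusted p = 0.517) and -0.14 for Hspe1 (SE 0.063, adjusted p = 0.248). Hspd1 did not overlap between these groups.

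**Figure D3:**
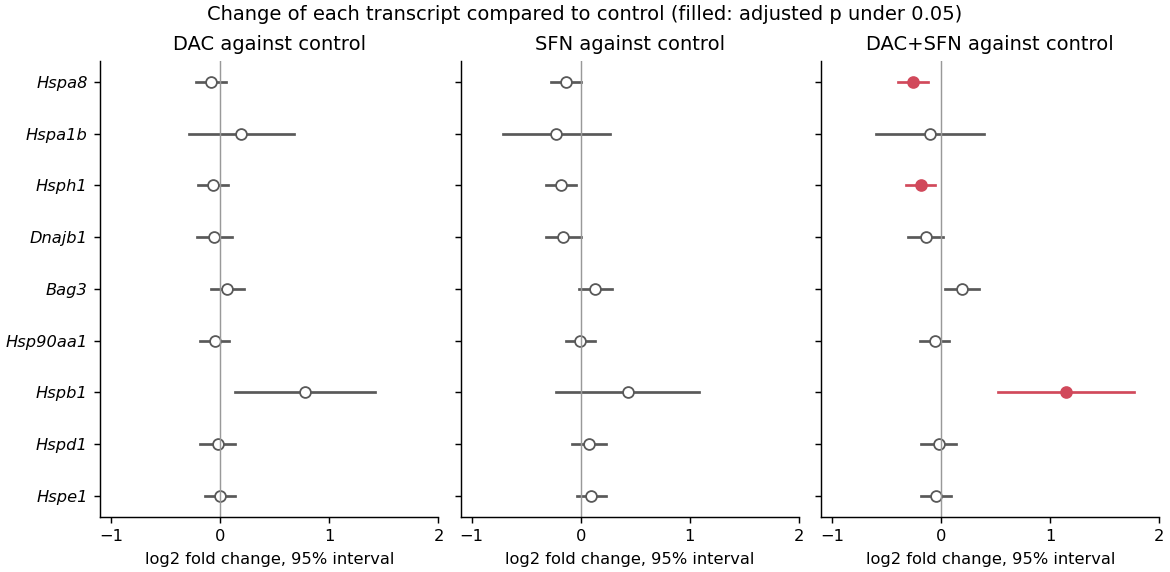
Log2 fold change (points) and 95% interval (lines) of the 9 members with DAC, SFN and DAC+SFN compared to control (edgeR, n = 3 per group). Filled points are called at an adjusted p-value under 0.05, and these are Hspa8 (-0.26), Hsph1 (-0.19) and Hspb1 (1.14) with DAC+SFN, while the widest intervals are those of Hspb1 and Hspa1b, which had the fewest counts.

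The comparisons above share the control libraries. At an unadjusted p-value under 0.05 there was 1 member each with DAC (Hspb1) and SFN (Hsph1), where 1170 genes (10.1%) and 3356 genes (28.8%) reached it. The Wald test of DESeq2 likewise called 0 members with DAC, with SFN or for the interaction. The median log2 fold change of the 9 members with DAC+SFN was -0.059, beside 0.0078 over all genes tested. The control and treated libraries did not overlap for 0 members with DAC (8.43% of all genes), 2 with SFN (20.8%) and 2 with DAC+SFN (29.4%).

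The added effect of each drug on the other was tested as well. No member was called with DAC+SFN compared to DAC (16.1% of all genes) or to SFN (1.61%) in edgeR. With DESeq2, Hspa8 was called in the former (adjusted p = 0.0370) and no member in the latter, where DESeq2 gave no adjusted p-value for Hspb1. At an unadjusted p-value under 0.05 there was 1 member, Hspa8, in the first comparison, and Hspb1 and Hspe1 reached it in the second, where 30.5% and 17.8% of all genes did. Relative to DAC, all 3 combination libraries were below all DAC libraries for Hspa8 only (18.2% of all genes did not overlap), and relative to SFN there was no overlap for Hspa8 and Hspd1 (12.1%). For the interaction of DAC and SFN, 0 members and 0% of all genes were called by edgeR, no member had an unadjusted p-value under 0.05, and 683 genes did. The interaction terms of the members were between -0.14 (Hspe1) and 0.071 (Dnajb1) on the log2 scale. Their intervals were widest for Hspb1, from -0.92 to 0.80.

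The members also differed by replicate number. This was called for 3 of 9 members (33.9% of all genes), namely Bag3 (adjusted p = 0.00197), Hspb1 (0.00753) and Hsp90aa1 (0.0157). Compared to replicate 1, Hspb1 was higher by 1.17 on the log2 scale in replicate 2 and by 0.91 in replicate 3, which is close to its change with DAC+SFN. Bag3 was higher by 0.20 in replicate 2 and lower in replicate 3 (-0.16). Library numbers in the labels follow the replicate numbers, so culture and library cannot be told apart. The summed level of 4 fibroblast markers also followed the replicate number, with 62.9 to 91.5 CPM in replicate 1, 17.9 to 25.7 CPM in replicate 2 and 247 to 359 CPM in replicate 3, most of it Col1a1, while Dcn and Lum had at most 3 counts. Its part in these results was not tested. Over the 4 conditions at once, 2 of 9 members differed (25.2% of all genes), Hspb1 (adjusted p = 0.0383) and Hspa8 (0.0389). This count was 0 without the block and between 0 and 4 as single libraries were left out. It fell to 0 without control replicate 1 or 2, DAC replicate 1, SFN replicate 1 or 3 or DAC+SFN replicate 1, and to 1 without replicate 2 of DAC, SFN or DAC+SFN, and it was 4 without DAC replicate 3.

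The factors that govern the heat shock genes are Hsf1, the main activator, its relatives Hsf2 and Hsf4, and Hsbp1, which binds HSF1. None of the 4 tested was called in any comparison. Hsf1 was at 72.6 ± 7.25 CPM (SD, n = 3) in control and 84.5 ± 15.2 CPM with DAC+SFN (log2 fold change 0.21, SE 0.081, adjusted p = 0.0549). Hsf2 was at 32.3 ± 1.16 and 28.1 ± 4.89 CPM (-0.21, SE 0.083, adjusted p = 0.0621). The values of Hsf4 (-0.20) and Hsbp1 (-0.065) with DAC+SFN had adjusted p-values of 0.160 and 0.482. Without DAC+SFN replicate 3, Hsf1 (0.31) and Hsf2 (-0.32) were called in this comparison.

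Other cytosolic HSP70, HSP90 and small heat shock proteins were listed next to the members, and 13 passed the filter. With SFN, 4 rose and 1 fell, where 8.27% of all genes were higher and 5.65% lower. With DAC+SFN, 5 rose and 3 fell, where 17% of all genes were higher and 14.7% lower. The 5 that rose were small heat shock proteins, like Hspb1. Cryab (alpha B-crystallin) was at 317, 469 and 279 CPM in control libraries, 502, 867 and 450.1 CPM after SFN and 555, 905 and 408 CPM after DAC+SFN. It was higher in 3 of 3 replicates with SFN (log2 fold change 0.75, SE 0.077, adjusted p = 2.38e-05) and with DAC+SFN (0.77, SE 0.077, adjusted p = 7.69e-06), while the groups overlapped. Hspb7, a small heat shock protein of muscle, was at 7.59, 5.12 and 24.9 CPM in control libraries, 32.2, 24.7 and 65.9 CPM after SFN and 45.4, 23.7 and 60.0 CPM after DAC+SFN. Its log2 fold change was 1.84 (SE 0.21, adjusted p = 5.39e-05) with SFN and 1.97 (SE 0.21, adjusted p = 1.35e-05) with DAC+SFN. Hspb6 (0.80, SE 0.11) and Hspb2 (0.49, SE 0.091) also rose with DAC+SFN, and Hspb8 (0.26, SE 0.087, adjusted p = 0.0356), which was picked after its value was seen. Hspa2, Hspa13 and Hspa14, picked in the same way, fell by 0.62, 0.21 and 0.26 on the log2 scale. Hsp90ab1, the constitutive HSP90, did not pass the test (-0.15, SE 0.060, adjusted p = 0.0624). Without the replicate block, 0 genes of this list rose with SFN or with DAC+SFN (Cryab had an adjusted p of 0.299 and 0.130, Hspb7 of 0.237 and 0.0892), and 2 fell with DAC+SFN. Only 1 fell without replicate 1 of control or of DAC+SFN.

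**Figure D4:**
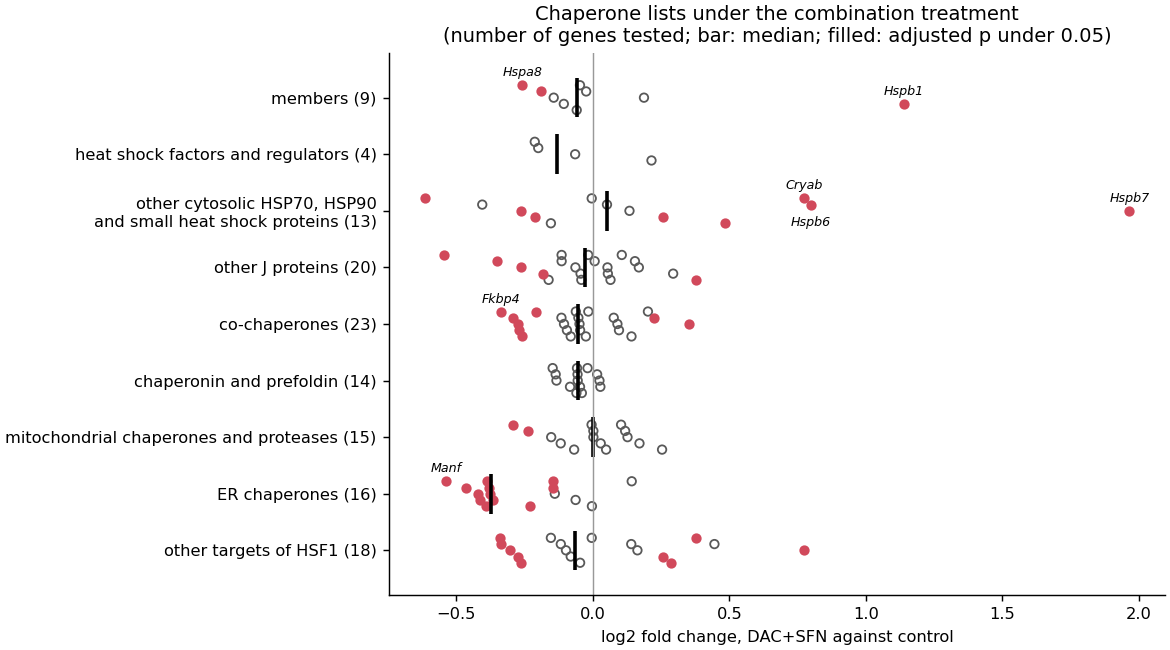
Log2 fold change with DAC+SFN compared to control of each tested gene (points) in the members and 8 further chaperone lists, with the list's median as a bar and called genes filled (edgeR, adjusted p-value under 0.05). The small heat shock proteins Hspb7, Hspb6, Cryab and Hspb1 lie to the right of 0.7, and most ER chaperones lie left of 0 around a median of -0.37. Some genes are in more than 1 list.

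Partners of the HSP70 and HSP90 members were examined in a pair of lists. Of 20 other J proteins, 1 rose and 4 fell with DAC+SFN (1 and 2 with SFN), where 17% of all genes were higher and 14.7% lower (8.27% and 5.65% with SFN). Dnajb4 rose (0.38, SE 0.088, adjusted p = 0.00513), and among those that fell were Dnajc21 (-0.54), Dnajc16 (-0.35) and Dnaja1 (-0.26, SE 0.065, adjusted p = 0.00714), a partner of HSC70. Dnajb4 was lost without control replicate 2 (adjusted p = 0.0540) and Dnaja1 without control replicate 1 (0.0534) or DAC+SFN replicate 1 (0.0538), and 2 J proteins fell without control replicate 1. Of 23 co-chaperones, 2 rose and 6 fell with DAC+SFN (1 and 2 with SFN), against the same shares of all genes. Fkbp4, an immunophilin that binds HSP90, had a level of 740 ± 41.2 CPM in control and 587 ± 33.3 CPM with DAC+SFN (-0.34, SE 0.061, adjusted p = 0.000888). Stip1, which hands clients from HSP70 to HSP90, fell as well (-0.27, SE 0.055, adjusted p = 0.00187), as did St13 (-0.26, SE 0.050), a cofactor of HSP70, while Tomm34 rose (0.35, SE 0.063). In this list 6 rose without DAC+SFN replicate 3, and 1 rose and 4 fell without control replicate 2. Without the block, 0 rose and 1 fell with DAC+SFN in each of these lists, and with SFN 0 rose and 0 fell. With single libraries left out, between 2 and 6 J proteins fell with DAC+SFN. With SFN, between 0 and 1 J proteins rose and between 0 and 2 fell in these fits. Of the co-chaperones, 1 rose with SFN in these fits and between 0 and 2 fell.

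The other folding compartments gave unlike counts. None of 14 genes for the cytosolic chaperonin and prefoldin was called, with values between -0.15 (Pfdn5) and 0.028 with DAC+SFN, while 2 were called without DAC+SFN replicate 3 and 1 without DAC+SFN replicate 2. Of 15 mitochondrial chaperones and proteases, which work beside Hspd1 and Hspe1, 0 rose and 2 fell with DAC+SFN, the protease Lonp1 (-0.29, SE 0.067, adjusted p = 0.00410) and Pitrm1 (-0.24, SE 0.069, adjusted p = 0.0169), where 14.7% of all genes were lower. Pitrm1 was lost without replicate 1 or 2 of control or of DAC+SFN (adjusted p between 0.0739 and 0.102), both were lost without the block, and 4 genes fell without DAC+SFN replicate 3. Hspa9, the mitochondrial HSP70, was at -0.068 (SE 0.054, adjusted p = 0.358). Of 16 ER chaperones, 9 fell with SFN (5.65% of all genes were lower), and 12 fell with DAC+SFN (14.7%), and none rose. With SFN the count was 4 without replicate 1 of control or replicate 3 of SFN, 1 without replicate 2 of control or of SFN, and 0 without the block. With DAC+SFN it was between 9 and 12 with single libraries left out and 9 without the block. Hspa5 (BiP), the HSP70 of the ER, was at 1907, 2151 and 1909 CPM in control libraries, 1710.0, 1579 and 1688 CPM after SFN and 1381, 1486 and 1586 CPM after DAC+SFN, with no overlap of the treated groups with control (-0.42, SE 0.068, adjusted p = 0.000364 after DAC+SFN). Manf (-0.54, SE 0.060), Pdia6 (-0.39, SE 0.054), Hsp90b1 (-0.46, SE 0.068) and Calr (-0.38, SE 0.057) fell with DAC+SFN. Of 18 other targets of HSF1, 4 rose and 5 fell with DAC+SFN (2 and 1 with SFN), where 17% of all genes were higher and 14.7% lower, Cryab and Cacybp (-0.34, SE 0.078) among them. With DAC+SFN, 2 of these rose without control replicate 2, and 0 rose and 4 fell without the block. With SFN, 0 rose and 0 fell without it. With DAC alone, no gene of any of these lists was called, and of the genes in these lists only Mrpl18 (-0.33, SE 0.070, adjusted p = 0.0379), named after its value was seen, differed between DAC+SFN and SFN.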

How the data were processed

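RNA was prepared with a stranded poly(A) kit and sequenced in 75-base single reads. The submitters' processing notes name FastQC 0.11.7, Trimmomatic 0.38, TopHat2 2.1.1 and HTSeq on mm10. The authors deposited raw read counts per gene symbol, from reads aligned to 1 place, and the annotation and strand setting of the counting are not given in the sources used here. The labels gave the group and replicate number of each sample.

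Genes that reached 1 CPM (16 to 27 counts) in 3 or more of the 12 libraries were scaled by TMM and tested with edgeR 4.0.16 (legacy quasi-likelihood fit, two-sided) in R 4.3.3, with all samples in 1 model. The replicate number was a block, as the study names 3 independent repeats and all 18 pairs of same-numbered samples deviated together (correlation 0.270 to 0.732). No replicates were copies of each other (chi-square per gene 12.6 to 34.3, where sampling gives about 1). DESeq2 1.42.0 was an alternative. All members were named, and from each further list up to 4 genes with the smallest adjusted p-value with SFN or DAC+SFN compared to control, and Hsf1, Hsf2, Hsp90ab1, Hspa9, Hspa5, Nqo1 and Hmox1 whatever their values. The members and lists were chosen with earlier results of these data known. Transcript lengths, found for 95.5% of symbols, came from GENCODE M21 and promoters from RefSeq. The fits were also run on simulated data, and the outcome is not given here. A further leukocyte marker was chosen and is not reported here. Python 3.11.15 and matplotlib 3.10.9 made the plots.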

Additional observations from a re-analysis of the deposited data

How the results depend on the processing

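With DAC+SFN compared to control, 3 members were called, and 1 was called without the replicate block (Hspa8), 1 with only the groups compared in the fit (Hspb1), 1 with a fold change above 2 in addition (Hspb1), and between 1 and 4 as single libraries were left out. Hspb1 and Hsph1 were both lost without control replicate 2 or DAC+SFN replicate 2, and Hsph1 also without control replicate 1. Bag3 was gained without DAC+SFN replicate 3 and Dnajb1 without DAC+SFN replicate 2. For DAC+SFN compared to DAC, 1 member (Hspa8) was called by the Wald test of DESeq2 and 1 (also Hspa8) with no filter on low counts, and between 0 and 1 with single libraries left out. For DAC+SFN compared to SFN, 1 member (Hspb1) was called with only these groups fitted. The count of members that differed between conditions was 2, and it was 1 with the version 4 fit of edgeR, 0 without the block, and between 0 and 4 with single libraries left out. For replicate numbers it was between 2 and 3. The cause of these losses and gains was not tested.

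The background over all genes moved more. For DAC compared to control it was 21, and 83 by DESeq2, 33 by the version 4 fit, 169 without the filter, 0 without the replicate block, 662 with the compared groups only, 4 with a fold change above 2, 4 at an adjusted p-value under 0.01, and between 0 and 23 with single libraries left out (0 without control replicate 1, 2 without control replicate 2, 8 and 11 without DAC replicates 3 and 2). For SFN compared to control it was 1619, and 23 without the block, 149 with a fold change above 2, 730 at 0.01, and between 728 and 1466 with a library left out. For DAC+SFN compared to control it was 3683, and 1201 without the block, 310 with a fold change above 2, 2091 at 0.01, and between 2336 and 4205 with a library left out. For DAC+SFN compared to DAC it was 1879, and 20 without the block, 760 with the compared groups only, 108 with a fold change above 2, 717 at 0.01, and between 770 and 2381 with a library left out. For DAC+SFN compared to SFN it was 187, and 410 by DESeq2, 486 without the filter, 0 without the block, 1221 with the compared groups only, 13 with a fold change above 2, 2 at 0.01, and between 0 and 700 with a library left out. The interaction gave 0 genes, and 1 without the filter.

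Small fold changes turned direction as single libraries were left out. Compared to control, these were Hspa1b (-0.0096 to 0.38), Hsp90aa1 (-0.088 to 0.0016), Bag3 (-0.036 to 0.13), Hspd1 (-0.091 to 0.048) and Hspe1 (-0.047 to 0.055) with DAC, Hsp90aa1 (-0.039 to 0.040) and Hsf2 (-0.11 to 0.0037) with SFN, and Hspd1 (-0.093 to 0.056) with DAC+SFN. For DAC+SFN compared to DAC these were Hsp90aa1 (-0.061 to 0.044) and Hspd1 (-0.074 to 0.086), and compared to SFN they were Hspa1b (-0.074 to 0.34), Hsph1 (-0.053 to 0.061) and Dnajb1 (-0.098 to 0.074). For the interaction they were Hspa1b (-0.26 to 0.15), Hspa8 (-0.10 to 0.015), Dnajb1 (-0.034 to 0.13), Hsp90aa1 (-0.058 to 0.046), Hspb1 (-0.39 to 0.36), Bag3 (-0.079 to 0.087) and Hspd1 (-0.15 to 0.017), and Bag3 was also at 0.00197 without the block. None of these values was called. The low counts of Hspb1 and Hspa1b, 18 to 119 in a library, limit what can be said of these members at this depth. Dnajb1 and Hsp90aa1, also described as inducible, had at least 792 and 49750 counts in a library. Summing Hspa1a and Hspa1b could not change a count of members, because Hspa1a was at 0 in all 12 libraries.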

Other observations

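Over the 12 libraries, the 5 genes outside the members whose log2 CPM most resembled the mean standardised log2 CPM of the 9 members were Cmc2 (Pearson r = 0.978, Spearman rho = 0.986), Gnb1 (0.961 and 0.916), Eif2b1 (0.958 and 0.937), Kat7 (0.942 and 0.909) and Pdia3 (0.935 and 0.909). These are descriptions over libraries that share treatments and replicate numbers. Among the members themselves, Hsp90aa1 followed this mean most closely (r = 0.846, rho = 0.909), while Hspb1 (r = 0.056) and Hspa1b (r = -0.13) did not follow it. Each member is part of the mean, which raises these values. Of the 36 pairs of members, 21 had a positive correlation. The median over the pairs was 0.144 (-0.633 to 0.888), so the mean stands for little that the members share.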
